A study of Mus musculus with 59 samples.

Results

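The 10 genes described here encode subunits of the BAF (SWI/SNF) chromatin remodelling complex: Smarca2, Smarca4, Smarcb1, Smarcc1, Smarcc2, Smarcd1, Smarcd3, Smarce1, Actl6b and Arid1a. They were taken by symbol from a list of subunits, and all 10 of 10 were found among 51456 listed genes. The rule used none of their values, but the list was chosen with earlier results of these data known. All 10 also passed the filter on low values (a mean of at least 10 normalized counts), which 16839 genes passed. C57BL/6J mice gave prefrontal cortex at postnatal day 25, and its RNA was poly(A)-selected, made into stranded libraries and sequenced.

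The 59 libraries fall into 12 groups by genotype at Chd8 (heterozygous for the allele Chd8-S62X, HT, or wild type, WT), by treatment and by sex. In HT animals and in WT animals alike, pups received fluoxetine, lithium or vehicle through their mothers' milk from day 3 to day 24, for 3 weeks. There were 9 HT libraries with fluoxetine (4 female, 5 male), 10 with lithium and 10 with vehicle, and 10 WT libraries with each treatment, with 5 of each sex wherever no other number is given. Fluoxetine blocks serotonin reuptake, and lithium inhibits glycogen synthase kinase 3 and inositol monophosphatase. Chd8 encodes a chromatin remodeller of another family, and its mutation is linked to autism. The labels name no dam or litter and do not say that each library is a separate animal, and p-values therefore cover only the spread among the libraries, which may be technical.

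BAF complexes use the energy of ATP to slide or evict nucleosomes and so open enhancers and promoters. Each complex holds 1 ATPase, a core scaffold and variable subunits that are exchanged as cells mature. When neural progenitors leave the cell cycle, Actl6a is replaced by its paralogue Actl6b, and other subunits change likewise, which gives the neuronal form of the complex. Mutations of several subunit genes, such as ARID1B and SMARCA2 in humans, cause neurodevelopmental disorders.

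Chd8 (chr14:52198151-52257780, minus strand, GRCm38) checked the genotype labels, and its RNA went against a loss. It stood at 5921 ± 384 normalized counts in HT-labelled libraries and 3656 ± 309 in WT-labelled libraries (SD, n = 29 and 30), a log2 fold change of 0.70 ± 0.027 (SE, limma adjusted p = 9.2267e-27). The genotypes are written as HT-labelled or WT-labelled below, and the direction of each genotype difference rests on those labels. Normalized counts summed to 30.3 to 33.7 M per library. Markers of olfactory bulb differed widely between the cortical libraries, with a summed level of 6 genes between 243.8 and 16890. In 8 libraries the level of 8 striatal markers was high (more than 5 robust SDs from the median, upward). Excitatory neuron markers were present in every library, and no marker of the 11 lists was at 0 in any library.

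Of the 10 subunit genes, Smarca4 was higher and Smarcd3 lower in HT-labelled than in WT-labelled libraries, and Smarcd3 was also lower with lithium than with vehicle, a call that ended with the meningeal marker level as covariate (adjusted p = 0.05968). No other subunit of the 10 passed the test in any of 13 comparisons of genotype, treatment, sex or their interaction. The changes that passed were small, at most 0.12 on the log2 scale. The promoters of these 2 genes are shown because they are the members that passed. Each run gives the 250 bases before the RefSeq start of the gene (GRCm38.p6), 5′ to 3′ on the gene's strand. Capitals mark an ETS core (CGGAAG or its reverse complement CTTCCG) or a GC box (GGGCGG or CCGCCC).
Smarca4 (chr9:21615919-21616168, plus strand): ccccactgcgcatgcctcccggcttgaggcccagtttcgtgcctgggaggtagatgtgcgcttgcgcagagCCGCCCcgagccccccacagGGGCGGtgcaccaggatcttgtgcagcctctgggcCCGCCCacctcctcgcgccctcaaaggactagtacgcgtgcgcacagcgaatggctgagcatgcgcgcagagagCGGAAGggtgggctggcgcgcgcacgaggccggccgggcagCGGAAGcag
Smarcd3 (chr5:24602003-24602252, minus strand): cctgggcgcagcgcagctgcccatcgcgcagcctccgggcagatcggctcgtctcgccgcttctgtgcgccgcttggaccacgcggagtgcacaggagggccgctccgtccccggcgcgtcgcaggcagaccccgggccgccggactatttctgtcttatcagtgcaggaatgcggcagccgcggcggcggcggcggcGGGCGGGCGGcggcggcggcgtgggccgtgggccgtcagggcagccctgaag
The Smarca4 window held 2 ETS cores, whose first bases lay at −50 and −9 from the start, and 3 GC boxes. The Smarcd3 window held 2 overlapping GC boxes and no ETS core, and its RefSeq start lies inside the longer GENCODE span of the gene. Of the 10 subunit genes, 9 had an entry, 1 of them with 2 starts, which gave 10 promoters. An ETS core was in 3 of these 10 and in 13.6% of 32851 promoters of the same length, and a GC box in 8 of 10 and in 32.7%. The palindromes CACGTG and TGACGTCA were in 0 of the 10, against 6.02% and 1.55% of all promoters. GC content was 70.8% before Smarca4 and 76% before Smarcd3, with a median of 52.4% over all promoters. These counts describe letters in a window and were not tested.

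The genotype comparison, averaged with equal weight over the 3 treatments and both sexes, asks how subunit RNA differs between HT-labelled and WT-labelled libraries. limma, a linear model fitted over all tested genes on log2(normalized count + 1), called 1344 of 16839 genes (7.98%) at an adjusted p under 0.05. Of the 10 subunits 2 were called, 1 higher and 1 lower, and 3 had an unadjusted p under 0.05, against 24.1% of all genes. With 10 members, neither count stands far from its background. The median log2 fold change of the 10 was 0.02 with 6 of 10 above 0, and over all genes it was 0.0016 with 50.8% above 0.

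**Figure D1:**
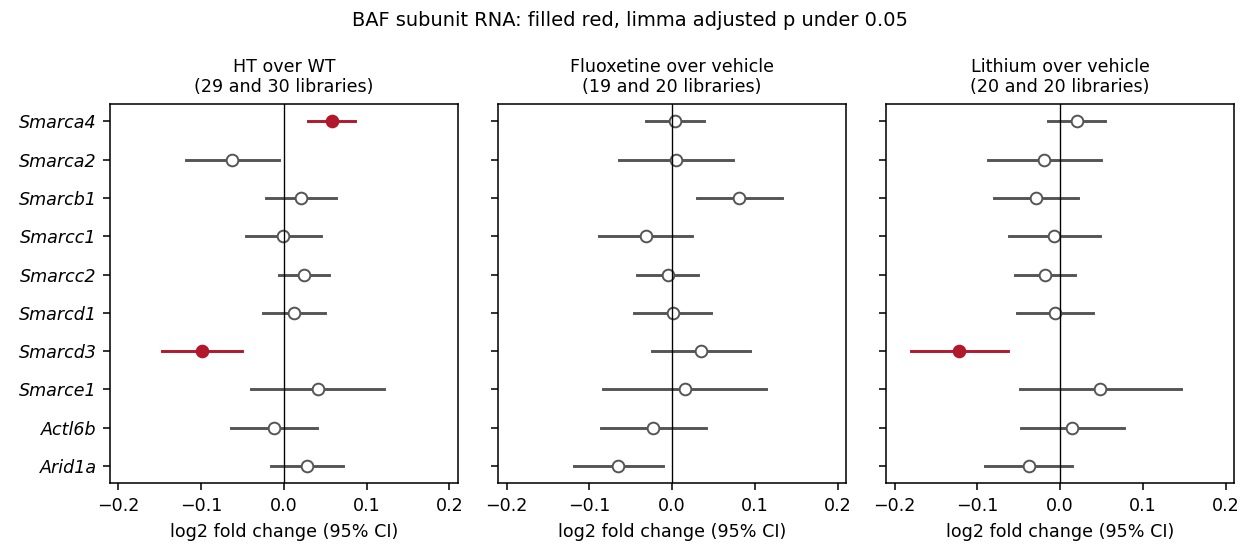
Log2 fold change of each subunit gene with its 95% confidence interval, for HT-labelled over WT-labelled, fluoxetine over vehicle and lithium over vehicle, each averaged over the remaining labels. Filled red points passed the test: Smarca4 (0.06) and Smarcd3 (−0.10) for genotype and Smarcd3 (−0.12) for lithium.

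The ATPases come first. Smarca4 (ENSMUSG00000032187, chr9:21616169-21704230, plus strand) encodes BRG1, 1 of the 2 alternative motors of the complex. It ranged from 4952 to 5746 normalized counts with a median of 5292 in HT-labelled libraries, and from 4654 to 5361 with a median of 5115 in WT-labelled libraries. The ranges overlapped, but the HT-labelled group sat higher, with the 2 highest values of all in its lithium males and the lowest of all in WT-labelled fluoxetine females. Smarca4 averaged 5310 ± 176 in HT-labelled and 5103 ± 171 in WT-labelled libraries (SD, n = 29 and 30), a log2 fold change of 0.06 ± 0.014 (SE, fold 1.04, limma adjusted p = 0.0064932).

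The Smarca4 difference lay above 0 in 5 of 6 strata of treatment and sex. Among fluoxetine females the HT-labelled values were 5256, 5472, 5202 and 5292, against 5131, 4654, 5005, 5061 and 5202 in WT-labelled libraries. Among vehicle males they were 4956, 5401, 5484, 5266 and 5532, against 5291, 4958, 4773, 5113 and 5031. The exception was fluoxetine males, with a log2 difference of −0.0062, where HT-labelled values were 4952, 5247, 5320, 5349 and 5192 and WT-labelled values 5312, 5210, 5022, 5265 and 5361. The 3 comparisons within single treatments gave 0.07 ± 0.024 under vehicle, 0.04 ± 0.025 under fluoxetine and 0.07 ± 0.024 under lithium, none past the threshold (limma adjusted p = 0.2645, 0.48768 and 0.2861).

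Smarca2 (ENSMUSG00000024921, chr19:26605050-26778322, plus strand) encodes BRM, the alternative motor, which is typical of differentiated cells. It averaged 8103 ± 658 in HT-labelled and 8455 ± 503 in WT-labelled libraries (SD, n = 29 and 30), with a log2 difference of −0.06 ± 0.028 that did not pass (SE, limma adjusted p = 0.15905). The value was below 0 in 6 of 6 strata, from −0.14 to −0.03. The lowest library, vehicle male replicate 3, was HT-labelled with 6311, and the highest, vehicle female replicate 2, was WT-labelled with 9441. Within a library the log2 difference of Smarca4 minus Smarca2 averaged −0.61 ± 0.14 in HT-labelled and −0.73 ± 0.11 in WT-labelled libraries (SD, n = 29 and 30). The HT-labelled mean of this balance was the higher in all 6 strata. Gene length enters the balance, so only its change between groups can be read, and no test was run on it.

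The core comprises Smarcb1, Smarcc1 and Smarcc2, and none of them passed for genotype. Smarcb1 (chr10:75896769-75921617, minus strand), whose protein binds the face of the nucleosome, averaged 1596 ± 95.7 in HT-labelled and 1576 ± 104 in WT-labelled libraries (limma adjusted p = 0.56673). Smarcc1 (chr9:110117708-110240178, plus strand) and Smarcc2 (chr10:128459248-128490482, plus strand) encode the paired scaffold proteins on which the complex assembles. Smarcc1 averaged 2472 ± 161 in HT-labelled and 2470 ± 115 in WT-labelled libraries, with a 95% interval of its log2 difference from −0.05 to 0.04. Smarcc2 averaged 8149 ± 278 in HT-labelled and 8022 ± 326 in WT-labelled libraries (limma adjusted p = 0.33818). Under fluoxetine Smarcc2 had a log2 difference of 0.06 ± 0.027 between genotypes and under lithium one of −0.03 ± 0.026, neither past the threshold (limma adjusted p = 0.22812 and 0.73163).

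Smarcd1 and Smarcd3 are paralogous accessory subunits that link the complex to transcription factors, and Smarcd3 is the form known from heart and postmitotic neurons. Smarcd3 (ENSMUSG00000028949, chr5:24590818-24624411, minus strand) ranged from 1182 to 1623 with a median of 1414 in HT-labelled libraries, and from 1281 to 1839 with a median of 1538 in WT-labelled libraries. The groups overlapped over most of their range, with the lowest value of all in an HT-labelled lithium female and the highest in a WT-labelled fluoxetine male. Smarcd3 averaged 1428 ± 97.3 in HT-labelled and 1534 ± 127 in WT-labelled libraries (SD, n = 29 and 30), a log2 fold change of −0.10 ± 0.024 (SE, fold 0.934, limma adjusted p = 0.0059655).

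The Smarcd3 difference was below 0 in 6 of 6 strata, from −0.17 to −0.05. It was largest in fluoxetine males, with 1333, 1420, 1401, 1545 and 1526 in HT-labelled libraries and 1839, 1551, 1588, 1640 and 1513 in WT-labelled libraries. Among fluoxetine females HT-labelled values were 1548, 1484, 1468 and 1497 and WT-labelled values 1624, 1759, 1664, 1558 and 1504. In both sexes the fluoxetine groups overlapped, at the lower end of the WT-labelled values. Within single treatments the log2 difference was −0.08 ± 0.041 under vehicle, −0.14 ± 0.042 under fluoxetine and −0.08 ± 0.041 under lithium, none past the threshold (limma adjusted p = 0.51806, 0.0877 and 0.50853). limma called 34 genes (0.202%) under vehicle, 143 (0.849%) under fluoxetine and 45 (0.267%) under lithium, and 0 of the 10 subunits in each. At an unadjusted p under 0.05 the 10 gave 1 under vehicle, 2 under fluoxetine and 1 under lithium, against 10.6, 14.7 and 10.1% of all genes. Under fluoxetine Smarcd3 passed without WT-labelled fluoxetine male replicate 5 (adjusted p = 0.04834), and also in some fits with a marker level as covariate. Whether it passed thus depended on the fit and on single libraries.

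Smarcd1 (chr15:99702129-99713991, plus strand), the partner paralogue, averaged 5291 ± 273 in HT-labelled and 5244 ± 257 in WT-labelled libraries, with a log2 difference of 0.01 ± 0.019 (limma adjusted p = 0.7131). Its 95% interval ran from −0.02 to 0.05. The log2 balance of Smarcd1 minus Smarcd3 was 1.89 ± 0.106 in HT-labelled and 1.78 ± 0.119 in WT-labelled libraries (SD, n = 29 and 30), and the HT-labelled mean was the higher in all 6 strata. The third paralogue, Smarcd2, averaged 390 ± 38.6 in HT-labelled and 388 ± 34.4 in WT-labelled libraries, with a log2 difference of 0.0044 ± 0.037 (limma adjusted p = 0.9557).

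**Figure D2:**
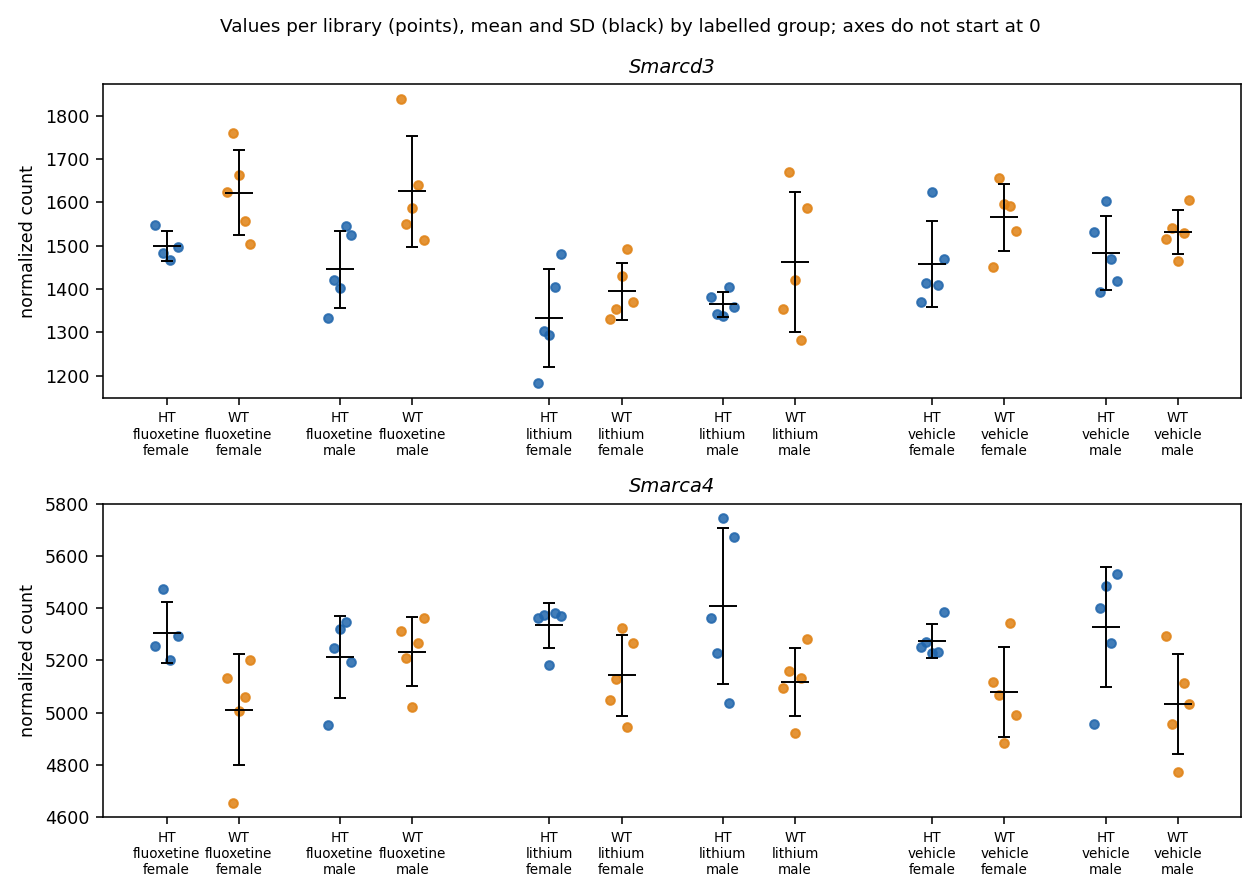
Normalized counts of Smarcd3 (top) and Smarca4 (bottom) in each of 59 libraries, with the mean and SD of each group of 4 or 5 libraries; the axes do not start at 0. The HT-labelled mean of Smarcd3 lies below the WT-labelled mean in each of 6 pairs, and that of Smarca4 above it in 5 of 6 pairs.

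Smarce1 (chr11:99209047-99231017, minus strand), an accessory subunit with an HMG box that binds DNA, averaged 1925 ± 264 in HT-labelled and 1857 ± 120 in WT-labelled libraries (SD, n = 29 and 30; limma adjusted p = 0.5576). It varied the most of the 10, with an SD of 0.15 on the log2 scale over all libraries, and its highest library, HT-labelled vehicle female replicate 4, had 2538. Actl6b (chr5:137553517-137569582, plus strand), the actin-like subunit of the neuronal complex, averaged 2258 ± 121 in HT-labelled and 2282 ± 174 in WT-labelled libraries (limma adjusted p = 0.81328). Its progenitor paralogue Actl6a averaged 323 ± 46.6 in HT-labelled and 307 ± 32.8 in WT-labelled libraries, with a log2 difference of 0.07 ± 0.049 (limma adjusted p = 0.41096). Arid1a (chr4:133679008-133756769, minus strand), the large AT-rich DNA binding subunit of the canonical complex, averaged 4319 ± 287 in HT-labelled and 4230 ± 243 in WT-labelled libraries (limma adjusted p = 0.45172). The alternative subunit Arid1b averaged 2829 ± 143 in HT-labelled and 2843 ± 127 in WT-labelled libraries (limma adjusted p = 0.82428).

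Several marker lists leaned to 1 side of 0 between genotypes, though markers of 1 list are not independent of each other. All 8 excitatory neuron markers lay below 0 (median log2 difference −0.114, 0 called), with summed levels from 44030 to 75980 in HT-labelled and 54430 to 75150 in WT-labelled libraries. All 6 olfactory bulb markers lay above 0 (median 0.283, 0 called), with summed levels from 381.9 to 16890 in HT-labelled and 243.8 to 11030 in WT-labelled libraries. The medians over libraries lay close, at 2648 in HT-labelled and 2543 in WT-labelled libraries. As the mean log2 of the 6 markers they were 7.71 and 7.789, in the other order. All 6 oligodendrocyte markers (median 0.177, 0 called), 7 of 8 striatal (0.136, 0 called) and 4 of 4 dividing progenitor markers (0.138, 0 called) also lay above 0. Summed oligodendrocyte markers ran from 101700 to 214300 in HT-labelled and 67370 to 243400 in WT-labelled libraries, and dividing progenitor markers from 2477 to 12750 in HT-labelled and 2969 to 8406 in WT-labelled libraries. Of 3 oligodendrocyte precursor markers 1 was called higher, the 1 marker of the 11 lists called for genotype, where 7.98% of all genes were called. Of the remaining lists, 3 of 6 inhibitory neuron, 2 of 5 microglia, 4 of 5 astrocyte, 3 of 3 endothelial and 3 of 4 meningeal markers lay above 0. In bulk tissue, fewer cells of a type and less RNA per cell cannot be told apart. With the level of a marker list as a covariate, Smarca4 had 0.05 ± 0.014 with excitatory neurons and 0.05 ± 0.013 with olfactory bulb (adjusted p = 0.01269 and 0.003833). Smarcd3 had −0.11 ± 0.023 and −0.10 ± 0.024 in the same fits (adjusted p = 0.0007989 and 0.002491). With oligodendrocyte or dividing progenitor markers as the covariate Smarca4 had 0.06 ± 0.015 and 0.05 ± 0.014 (adjusted p = 0.009137 and 0.01397), and Smarcd3 −0.09 ± 0.025 and −0.11 ± 0.023 (0.01038 and 0.00133). The Smarca2 difference was −0.03 ± 0.022 with excitatory neurons as the covariate (adjusted p = 0.5349), and −0.06 ± 0.022 with the replicate number as a block within each genotype, where it passed (adjusted p = 0.04754). That last fit takes the spread between numbers out of the error of the genotype contrast. If a number marks a shared litter or day, its p-value is too small.

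Lithium was compared with vehicle, averaged over genotype and sex, to see whether the drug moves subunit RNA. Smarcd3 fell by 0.12 ± 0.029 on the log2 scale (SE, fold 0.919, limma adjusted p = 0.0091972) and was the only 1 of the 10 called, while limma called 742 genes (4.41%). At an unadjusted p under 0.05 it was again 1 of the 10, against 18.7% of all genes. Smarcd3 ranged from 1182 to 1669 with a median of 1363 in lithium libraries, and from 1369 to 1655 with a median of 1522 in vehicle libraries. The groups overlapped, and the lithium median lay just under the lowest vehicle library. The means were 1389 ± 108 in lithium and 1509 ± 85.3 in vehicle libraries (SD, n = 20 and 20).

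The lithium difference of Smarcd3 was below 0 in 4 of 4 strata, from −0.17 to −0.07. WT-labelled females had 1330, 1355, 1429, 1492 and 1369 with lithium and 1451, 1655, 1595, 1592 and 1534 with vehicle. HT-labelled females had 1182, 1304, 1295, 1404 and 1480 with lithium and 1369, 1414, 1623, 1409 and 1469 with vehicle. The WT-labelled females overlapped in the range of 1 library per group, and the HT-labelled females more widely. HT-labelled males had 1381, 1343, 1337, 1405 and 1357 with lithium and 1532, 1392, 1602, 1470 and 1418 with vehicle. WT-labelled males showed the smallest difference, with 1353, 1669, 1420, 1281 and 1586 with lithium and 1514, 1542, 1465, 1530 and 1606 with vehicle. The high WT-labelled lithium male, replicate 2, was also the library with the most striatal marker RNA.

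The fall was of like size in both genotypes. It was 0.12 ± 0.041 on the log2 scale in HT-labelled libraries and 0.12 ± 0.041 in WT-labelled libraries, neither past the threshold alone (limma adjusted p = 0.21903 and 0.18889). limma called 40 genes (0.238%) for lithium in HT-labelled and 36 (0.214%) in WT-labelled libraries, and 0 of the 10 subunits in either. At an unadjusted p under 0.05 Smarcd3 was the 1 subunit in each, against 10.2% of all genes in HT-labelled and 11.9% in WT-labelled libraries. The difference between the 2 lithium effects was −0.0043 ± 0.058 (adjusted p = 0.99987), with a 95% interval from −0.12 to 0.11. The genotype and lithium comparisons of Smarcd3 share the vehicle and lithium libraries and the estimate of its spread, so their p-values are not independent. The 2 log2 differences themselves are uncorrelated by design, since each of these groups has 5 libraries. Ordered by group mean, Smarcd3 was lowest in HT-labelled lithium females (1333 ± 114) and highest in WT-labelled fluoxetine males (1626 ± 128), 1.22-fold apart. Of the 11 pairs of neighbours in that order, 9 differed by less than 1 SD, though ordering by mean itself brings neighbours close. Of the variance of Smarcd3, 53.9% lay between the 12 groups, against a median of 22.3% over all tested genes and 9.74 to 38.5% for the other subunits. Fitting 12 means takes up part of the variance even where no group differs, so a share alone does not show a group difference. The Smarcd3 share comes from the same values as its calls.

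The other subunits showed no lithium call. Smarca4 averaged 5251 ± 212 with lithium and 5178 ± 206 with vehicle (SD, n = 20 and 20; limma adjusted p = 0.5654), with a log2 difference near 0.02 in each of 4 strata. Arid1a averaged 4260 ± 263 with lithium and 4375 ± 281 with vehicle, with a log2 difference of −0.04 ± 0.026 (adjusted p = 0.45266). Smarcc2 averaged 8030 ± 365 with lithium and 8130 ± 257 with vehicle (adjusted p = 0.6267). Smarcd1 averaged 5249 ± 201 with lithium and 5276 ± 296 with vehicle (adjusted p = 0.91379), and the log2 balance of Smarcd1 minus Smarcd3 was 1.92 ± 0.113 with lithium and 1.81 ± 0.117 with vehicle. The remaining 5 had adjusted p between 0.57138 and 0.91957. The median of the 10 was −0.01 with 3 of 10 above 0, and over all genes it was −0.00038 with 49.8% above 0.

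**Figure D3:**
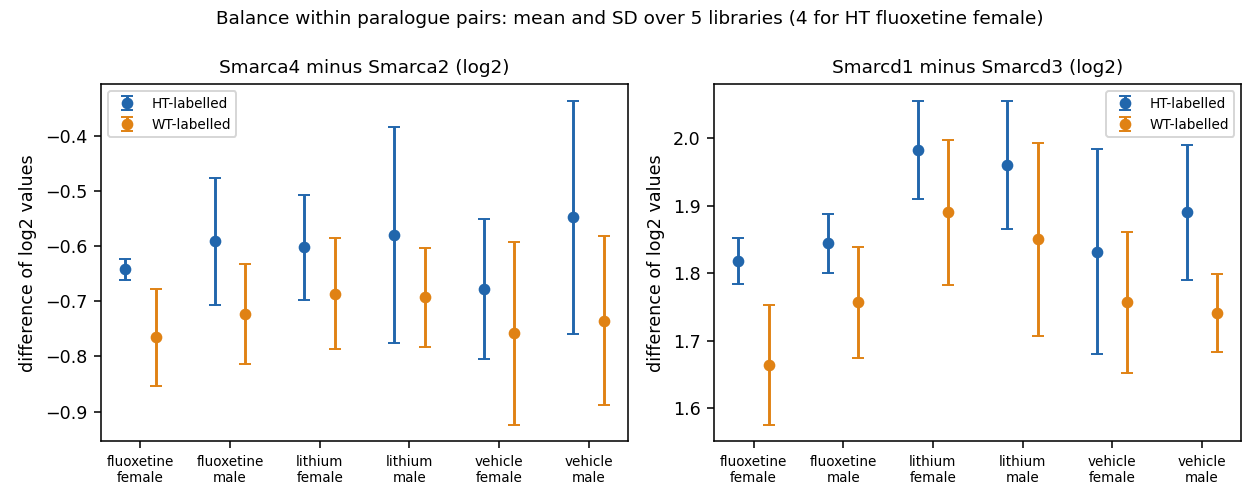
Log2 difference within each library between Smarca4 and Smarca2 (left) and between Smarcd1 and Smarcd3 (right), as the mean and SD of each group of 4 or 5 libraries. The HT-labelled mean lies above the WT-labelled mean in all 6 pairs of both panels. For Smarcd1 minus Smarcd3 the lithium means are the highest within each genotype and sex.

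Smarcd3 was set beside some marker lists that lay all or mostly on 1 side of 0 with lithium. The 8 striatal markers all lay above 0 (median 0.241, 0 called), with summed levels from 4828 to 30080 with lithium and 4446 to 16390 with vehicle. The 4 meningeal markers lay below 0 (median −0.405, 1 called lower), with 1857 to 3675 with lithium and 2402 to 15320 with vehicle. The 6 olfactory bulb markers also lay below 0 (median −0.268, 0 called), with 447.6 to 13840 with lithium and 381.9 to 16890 with vehicle, as did the 4 dividing progenitor markers (−0.0991, 0 called), with 2890 to 9692 with lithium and 2477 to 12750 with vehicle. Of 5 astrocyte markers 4 lay below 0 (median −0.0764, 0 called), with summed levels from 34240 to 43820 with lithium and 36780 to 47530 with vehicle. The lithium difference of Smarcd3 was −0.13 ± 0.029 with the striatal level as covariate and −0.14 ± 0.030 without the 8 striatum-rich libraries (adjusted p = 0.00392 and 0.003995). It was −0.09 ± 0.028 with the astrocyte level, −0.12 ± 0.028 with the bulb level and −0.11 ± 0.028 with the dividing progenitor level as covariate (adjusted p = 0.03555, 0.006629 and 0.01052). With the meningeal level as covariate it was −0.10 ± 0.032 and no longer passed (adjusted p = 0.05968).

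Fluoxetine gave no subunit call. limma called 11 genes (0.0653%) for fluoxetine against vehicle over genotypes and sexes, 0 of the 10 subunits, with 2 of the 10 and 11.9% of all genes at an unadjusted p under 0.05. Smarcb1 averaged 1659 ± 91.9 with fluoxetine and 1567 ± 92.1 with vehicle (SD, n = 19 and 20), a log2 difference of 0.08 ± 0.026 (adjusted p = 0.19588) that lay above 0 in 4 of 4 strata. The largest stratum was WT-labelled males, with 1913, 1790, 1536, 1635 and 1673 with fluoxetine and 1540, 1463, 1511, 1481 and 1647 with vehicle. These groups overlapped, since 2 of the fluoxetine values lie below the highest vehicle value. The Smarcb1 difference was 0.04 ± 0.037 in HT-labelled and 0.12 ± 0.036 in WT-labelled libraries (adjusted p = 0.9182 and 0.11322), and the difference between them was −0.08 ± 0.051 (adjusted p = 0.87419). Fluoxetine called 0 genes (0%) in HT-labelled libraries, with 857 (5.09%) and 0 of the 10 subunits at an unadjusted p under 0.05, and 32 (0.19%) in WT-labelled libraries, with 0 of the 10. In WT-labelled libraries 1 of the 10 and 12.5% of all genes had an unadjusted p under 0.05.

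The Smarcb1 call changed with the bulb covariate. All 6 olfactory bulb markers were lower with fluoxetine (median −0.593, 0 called), with summed levels from 243.8 to 12810 with fluoxetine and 381.9 to 16890 with vehicle. With that level as covariate the Smarcb1 difference was 0.10 ± 0.021 and passed the test (adjusted p = 0.02729). Without the 8 striatum-rich libraries it was 0.07 ± 0.029 (adjusted p = 0.7232). Arid1a showed the opposite sign, with 4182 ± 230 with fluoxetine and 4375 ± 281 with vehicle (SD, n = 19 and 20), a log2 difference of −0.06 ± 0.027 (adjusted p = 0.33669) that lay below 0 in 4 of 4 strata. The other 8 subunits had log2 differences from −0.03 to 0.04, with adjusted p between 0.6411 and 0.99477. For Smarcd3 it was 0.04 ± 0.029, with 1551 ± 120 with fluoxetine and 1509 ± 85.3 with vehicle.

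The interaction asks whether a drug moved a subunit differently in the 2 genotypes. limma called 0 genes for fluoxetine and 0 for lithium (0% each), with 1040 (6.18%) and 386 (2.29%) of 16839 at an unadjusted p under 0.05, and none of the 10 subunits was among these. The lowest p among the 10 was that of Smarcc2 for lithium, with −0.07 ± 0.036 (adjusted p = 0.99987). Between female and male libraries limma called 26 genes (0.154%) and 0 of the 10, with 1 of the 10 and 7.85% of all genes at an unadjusted p under 0.05. Arid1a had the largest difference of the 10, with 4171 ± 234 in female and 4373 ± 263 in male libraries (SD, n = 29 and 30), a log2 difference of −0.07 ± 0.022 (adjusted p = 0.32633). By group mean Arid1a was lowest in WT-labelled fluoxetine females (3992 ± 159) and highest in HT-labelled vehicle males (4577 ± 336).

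Levels of the remaining subunits spanned narrow ranges over the 12 groups. Smarca2 group means ran from 7841 ± 1034 in HT-labelled vehicle males to 8643 ± 334 in WT-labelled fluoxetine males, a ratio of 1.10. Smarca4 ran from 5011 ± 213 in WT-labelled fluoxetine females to 5409 ± 299 in HT-labelled lithium males (1.08), and Smarcb1 from 1511 ± 50.8 in WT-labelled lithium males to 1709 ± 146 in WT-labelled fluoxetine males (1.13). The scaffold, accessory and neuronal subunits Smarcc1, Smarcc2, Smarcd1 and Actl6b spanned ratios of 1.07, 1.05, 1.07 and 1.07, and Smarce1 one of 1.12. For Smarca2, Smarca4, Smarcc2, Smarcd1, Smarce1 and Actl6b all 11 pairs of neighbouring group means lay within 1 SD. For Smarcb1, Smarcc1 and Arid1a it was 10 of 11. Ordering by mean itself brings neighbours close, so these counts cannot show that groups are alike, and Smarca4 passed for genotype with all 11. The SD of the 10 on the log2 scale over all libraries lay between 0.0551 and 0.15, below the median of 0.168 over all tested genes. This contrast is not matched for level. The 10 averaged 1482 to 8282 normalized counts, while the tested genes start at a mean of 10.

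A further 21 genes of BAF complexes and of the related forms with other subunits gave 1 call at most in each of the 13 comparisons. The calls were 1 of 21 each for genotype, lithium and sex, where 7.98, 4.41 and 0.154% of all genes were called. At an unadjusted p under 0.05 the 21 genes gave 3 for genotype, 1 for fluoxetine, 3 for lithium and 6 for sex, against 24.1, 11.9, 18.7 and 7.85% of all genes. The 6 for sex were all lower in female than in male libraries, where 17 of the 21 lay below 0 with a median of −0.04. Over all genes 50.4% lay above 0 for sex. Bcl7a, an accessory subunit, averaged 3424 ± 204 in HT-labelled and 3656 ± 181 in WT-labelled libraries (SD, n = 29 and 30), a log2 fold change of −0.10 ± 0.021 (limma adjusted p = 0.0019583). The other 20 did not pass for genotype, and 15 of 21 lay above 0 (50.8% of all genes) with a median of 0.03. Ss18l1, the calcium-responsive subunit of the neuronal complex, averaged 1688 ± 62.2 with lithium and 1769 ± 75.4 with vehicle (SD, n = 20 and 20), a log2 fold change of −0.07 ± 0.019 (adjusted p = 0.028402). Its call ended without the 8 striatum-rich libraries (adjusted p = 0.1489), with the lithium and vehicle groups fitted alone (0.05459), without a low value filter (0.07223) and without WT-labelled vehicle female replicate 1 (0.05088). Dpf1, a subunit of the neuronal complex with PHD fingers, averaged 1650 ± 175 in female and 1836 ± 173 in male libraries, a log2 fold change of −0.16 ± 0.035 (adjusted p = 0.026385). Its call ended without the striatum-rich libraries (adjusted p = 0.09666) and with the microglia or oligodendrocyte precursor level as covariate (0.2441 and 0.343). It also ended without HT-labelled fluoxetine female replicate 3, HT-labelled lithium male replicate 5, WT-labelled lithium male replicate 1 or WT-labelled vehicle female replicate 2 (0.05208 to 0.05355). Fluoxetine gave 0 calls among the 21, with 1 at an unadjusted p under 0.05, Arid2, at −0.12 ± 0.052 (adjusted p = 0.37664).

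Across libraries the subunits fell into genes that followed the regional markers in opposite directions and genes that did not follow them. Over 59 libraries, Pearson's r was computed between 10 subunits and 11 marker lists, 110 relations in all. Of these, 30 had an adjusted p under 0.05 by permutation, 16 positive and 14 negative. The share of all tested genes that would pass against the same lists was not computed. The count therefore cannot be read as particular to the subunits. Smarca2 fell with the olfactory bulb level (r = −0.60, rho = −0.61, adjusted permutation p = 0.000137 and 0.000275, r = −0.58 once the 2 libraries with the most extreme marker levels were dropped, and −0.64 within the 12 groups). Smarcd1 rose with it (r = 0.59, rho = 0.60, adjusted permutation p = 0.000137 and 0.000275, r = 0.58 without the 2 farthest, 0.62 within groups), and so did Arid1a (r = 0.58, rho = 0.57, adjusted permutation p = 0.0002 and 0.00044, r = 0.57 without the 2 farthest, 0.61 within groups). Smarca2 rose with the excitatory neuron level (r = 0.65, rho = 0.52, adjusted permutation p = 0.000137 and 0.000917, r = 0.54 without the 2 farthest, 0.67 within groups). Smarce1 fell with that level (r = −0.65, rho = −0.56, adjusted permutation p = 0.000137 and 0.000275, r = −0.63 without the 2 farthest, −0.70 within groups). The points share depth, normalization and the makeup of each piece of tissue.

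The marker levels differed with the replicate number. Among HT-labelled libraries the log2 bulb level was 4.62 to 5.76 in all 6 libraries numbered replicate 1 and 8.74 to 10 in all 6 numbered replicate 4. The excitatory level was 11.69 to 11.78 and 10.95 to 11.37 in the same libraries. Among WT-labelled libraries the bulb level was 5.1 to 9.23 in replicate 1 and 6.23 to 9.04 in replicate 4. The labels do not say what a number stands for, and the permutations treat all libraries as exchangeable, so their p-values do not allow for this structure. With group and number within genotype removed, r with the bulb level was −0.44 for Smarca2, 0.48 for Smarcd1 and 0.62 for Arid1a, and r with the excitatory level was 0.61 for Smarca2 and −0.69 for Smarce1. Within HT-labelled libraries alone the same 5 values were −0.67, 0.74, 0.62, 0.72 and −0.74, and within WT-labelled libraries alone −0.48, 0.39, 0.51, 0.36 and −0.23 (n = 29 and 30, no test).

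**Figure D4:**
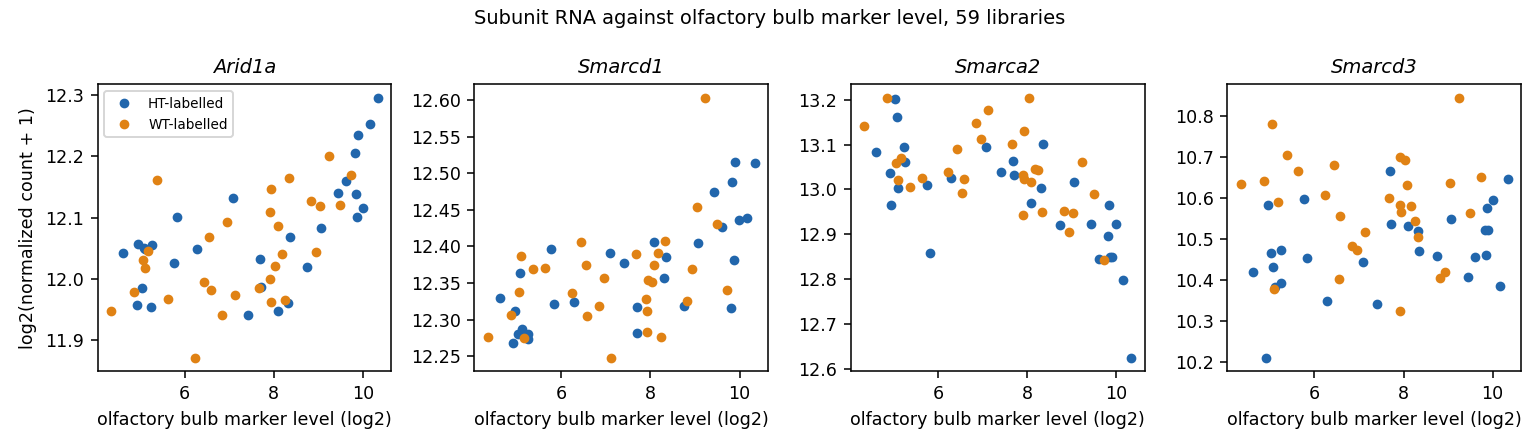
Log2 level of 4 subunits against the olfactory bulb level (mean log2 of 6 markers) in 59 libraries. Arid1a and Smarcd1 are higher and Smarca2 lower in libraries with more bulb marker RNA. Smarcd3 shows no such trend over all 59 libraries (r = 0.10), with r = 0.38 in HT-labelled and −0.08 in WT-labelled libraries alone.

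Of the subunits called for genotype, Smarcd3 had r = 0.10 with the bulb level and −0.13 with the excitatory level (permutation p = 0.46 and 0.323). Within the 12 groups these values were 0.22 and −0.35 (no test). They were 0.38 and −0.38 in HT-labelled libraries alone, and −0.08 and −0.18 in WT-labelled libraries alone. By r the largest relation of Smarcd3 was with astrocytes (r = 0.32, rho = 0.32, adjusted permutation p = 0.0482 and 0.0592, r = 0.32 without the 2 farthest, 0.43 within groups). By rho it was with meninges (r = 0.20, rho = 0.34, adjusted permutation p = 0.318 and 0.0438, r = 0.33 without the 2 farthest, 0.19 within groups). Smarca4 rose with the bulb level (r = 0.41, rho = 0.38, adjusted permutation p = 0.00587 and 0.0189, r = 0.41 without the 2 farthest, 0.43 within groups). Smarcc2 and Actl6b, with r = 0.04 and 0.01 for the bulb level, had no relation with any list at an adjusted p under 0.05. Whether the relations of one subunit differ from those of another was not tested.

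**Figure D5:**
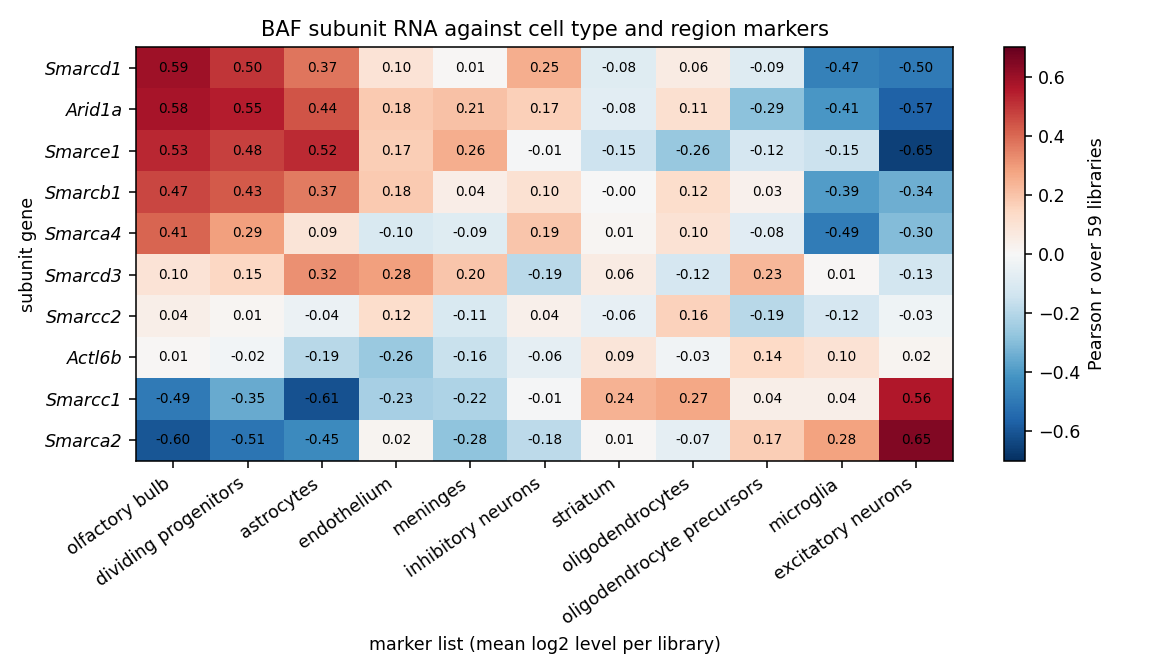
Pearson's r over 59 libraries between the log2 level of each subunit and the mean log2 level of each marker list. Smarcd1, Arid1a, Smarce1, Smarcb1 and Smarca4 are positive with olfactory bulb and negative with excitatory neurons, and Smarca2 and Smarcc1 have the reverse signs.

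Among the 45 pairs of the 10 subunits, 19 had an adjusted permutation p under 0.05 (12 positive, 7 negative). The strongest was between Smarca2 and Arid1a (r = −0.67, rho = −0.60, adjusted permutation p = 0.000225 and 0.00045, r = −0.56 without the 2 farthest, −0.73 within groups). Between the ATPases Smarca2 and Smarca4 it was −0.37 (rho = −0.28, adjusted permutation p = 0.0125 and 0.11, r = −0.32 without the 2 farthest, −0.32 within groups). The share of pairs of other genes that would pass was not computed, so 19 of 45 cannot be read as particular to these subunits. After the 12 group means were removed, each subunit was set against the mean z score of the other 9. That r ran from −0.52 for Smarca2 to 0.55 for Smarcd1 and was 0.04 for Smarcd3. The genes most like the mean of all 10 subunits over 59 libraries by this measure were Pnmal2 (r = 0.78), Camk2b (0.74), Elavl3 (0.71), Bcl11a (0.70), Dpp6 (0.70), Leo1 (0.69), Gpr161 (0.68) and Gtpbp1 (0.68). Bcl11a is itself a subunit of neural BAF complexes.

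Overlap with neighbouring genes limits a few values. Smarcd3 shares 3739 bases (chr5:24590818-24594556) with Chpf2 on the other strand. The kit is stranded, but the strand setting of the counting is not given in the sources used here, so reads in the overlap are uncertain. Chpf2 had a log2 difference of −0.04 ± 0.033 for genotype and −0.0055 ± 0.040 for lithium (limma adjusted p = 0.5228 and 0.9634). Smarcd1 shares 3315 bases with Gm17349, annotated as protein coding on the other strand, and Smarcc1 shares 123 bases with Dhx30. Smarcd1 and Smarca2 also overlap antisense genes. No protein-coding gene on the other strand overlaps Smarca4 in the GENCODE annotation of GRCm38.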

How the data were processed

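Poly(A)-selected RNA of 59 prefrontal cortex libraries was analysed from 1 table that the authors deposited, a normalized signal per gene in units of counts that are not whole. The build GRCm38, DESeq2 1.19.11, Salmon 0.11.2 and R 3.6.0 are named, per the submitters' processing notes, with no role or order. The value of 1 read varied between genes within a library: the most frequent low value (0.854 to 1.307) was held by 26 to 132 of the 1880 to 2390 genes with values above 0 and below 1.6. Whole reads could therefore not be recovered, no count model was run, and the depth in reads is unknown. No column was left unused. Of the identifiers, 51285 had a symbol and 171 had none, and 17301 genes had 0 in every library. Correlations of log2 values between libraries ran from 0.9656 to 0.9912.

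A linear model was fitted with limma 3.58.1 (statmod 1.5.0, R 4.3.3) to log2(value + 1) of the 16839 genes with a mean of at least 10, with 1 mean for each of 12 groups, a mean-variance trend and robust shrinkage. P-values were adjusted over all of them by Benjamini-Hochberg, and calls were made at 0.05. Fold changes are on that scale. A ± gives the SE of a log2 difference and the SD of a level or balance. The fit was tested on simulated data for the genotype, fluoxetine and lithium comparisons averaged over the other labels. Of 50 genes given a log2 change of 0.1 it recovered 22 to 24%. Recovery was 66 to 72% at 0.25 and 96 to 98% at 1. A subunit that was not called can therefore still have changed by an amount near 0.1. Correlations used 100000 two-sided permutations (Python 3.11.15, scipy 1.17.1), and 1e-05 is the smallest p they can give. Positions are from the GENCODE annotation of GRCm38, and promoters from RefSeq (GRCm38.p6).

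The text names all 10 subunits, Chd8, the further subunits called (or the 1 with the smallest p where none was) and the 8 genes most like the mean of the subunits. Smarcd2, Actl6a and Arid1b, paralogues of subunits, were named after their values were seen. The members, the further subunits and the marker lists were chosen with earlier results of these data known. Alternatives were plain shrinkage (no trend, not robust), TMM factors (a median shift of at most 0.00961), no filter or a mean of at least 100, a pseudocount of 0.5, only the groups of a contrast, the replicate number as a block, bulb or striatal marker levels as covariates, omission of the 8 striatum-rich libraries, and each library left out in turn. Excitatory neuron, astrocyte, microglia, oligodendrocyte, oligodendrocyte precursor, meningeal and dividing progenitor covariates, and the block within genotype, were chosen after seeing the data.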

Additional observations from a re-analysis of the deposited data

Results flagged for a closer look

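Each of the 10 subunits was examined in each of the 12 groups of 4 or 5 libraries for 1 library far from the others, and 10 of the 120 sets of values (8.33%) held one. Chance gives about 1 in 20. The values are in normalized counts, and nothing was left out for them.

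Smarca4 stood at 5180 in HT-labelled lithium female replicate 3, below the other libraries of its group (5362 to 5382). It stood at 5386 in HT-labelled vehicle female replicate 5, above the others (5226 to 5271). Smarcd1 had 5746 in HT-labelled vehicle female replicate 4, above the others (4973 to 5144), and 5081 in WT-labelled lithium male replicate 4, below them (5247 to 5310). Smarce1 had 2538 in the same HT-labelled vehicle female replicate 4, above the others (1713 to 1950), and 1622 in WT-labelled vehicle female replicate 5, below them (1819 to 1888). Actl6b had 4 such libraries. It was high in HT-labelled vehicle female replicate 3, with 2436 against 2238 to 2275. It was low in HT-labelled vehicle male replicate 4, with 1999 against 2196 to 2247, in WT-labelled lithium male replicate 5, with 2075 against 2329 to 2399, and in WT-labelled vehicle female replicate 1, with 2108 against 2323 to 2378. Smarcd3 had none.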

How the results depend on the processing

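Smarca4 and Smarcd3 passed for genotype under all 17 alternatives and in all 59 fits without 1 library. Smarca4 ranged from 0.05 to 0.06 (adjusted p = 0.002104 to 0.01634) and Smarcd3 from −0.12 to −0.09 (0.0004227 to 0.01364). Smarcd3 passed for lithium under 17 of 18 alternatives (−0.14 to −0.09, adjusted p = 0.00392 to 0.05968) and in 40 of 40 such fits. The exception was the meningeal covariate, with 0 subunits called for lithium. The number of the 10 subunits called changed in 3 other comparisons. For fluoxetine against vehicle it was 1 (Smarcb1) with the olfactory bulb or dividing progenitor covariate (adjusted p = 0.02729 and 0.04817). For fluoxetine in WT-labelled libraries it was 1 (Smarcb1) with the olfactory bulb, excitatory neuron, astrocyte or dividing progenitor covariate (adjusted p = 0.0156, 0.02533, 0.04923 and 0.009839). For genotype under fluoxetine it was 1 (Smarcd3) with the excitatory neuron, astrocyte, oligodendrocyte precursor or dividing progenitor covariate (adjusted p = 0.02935, 0.03748, 0.03455 and 0.03481), and 0 to 1 without single libraries. With the replicate number as a block the counts were 2 for genotype, 1 for lithium and 0 in the other 11 comparisons, and no call among the 10 changed. As a block within each genotype the counts were 3 for genotype, with Smarca2 added, 1 for lithium and 0 elsewhere. For genotype that fit leaves the spread between numbers out of the error, so its p-values may be too small. The labels do not say that a number marks a shared animal, litter or day. Deviations from group means correlated between same-numbered libraries at −0.37 to 0.553 (median 0.0479, 319 pairs), against a median of −0.0185 for different numbers. The medians were 0.25 against −0.0631 among HT-labelled and 0.0192 against −0.0153 among WT-labelled libraries, and 23 of 59 libraries correlated best with one of their own number. Counts over all genes moved more. For genotype 1344 genes passed in the fit reported, with 877 to 2308 under the alternatives (lowest with no filter, highest with the block within genotype), and for lithium 742, with 428 (meningeal covariate) to 1479 (excitatory neuron covariate). Under single treatments the genotype counts of 34 (vehicle), 143 (fluoxetine) and 45 (lithium) ranged over 6 to 99, 68 to 596 and 17 to 136. For fluoxetine 11 genes passed, with 1 to 85 under the alternatives and 4 to 74 without single libraries. Lithium counts of 40 in HT-labelled and 36 in WT-labelled libraries ranged over 0 to 184 and 0 to 245, and the fluoxetine count of 32 in WT-labelled libraries over 0 to 510. For sex it was 26, with 20 to 42. The cause of these moves was not tested. Fitting only the groups of a contrast was not run for genotype and sex, which use all 12 groups. Depth in reads is unknown, so no counting error could be set beside a value.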
